A study of Arabidopsis thaliana with 6 samples.

Results

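BBX24 (AT1G06040, also called STO, salt tolerance) and BBX25 (AT2G31380, also called STH, salt tolerance homologue) encode B-box proteins of Arabidopsis thaliana, and each is represented by 1 probe set of the Affymetrix ATH1 array (ATH1.260956_at for BBX24 and ATH1.263252_at for BBX25), 2 in all of the 22746 that are not controls. The rows were picked by their probe set identifiers with their response to red light already known, so their signals and changes between red light and dark are a description and carry no test. The platform annotation used here lists neither row, and the pairing of row and gene rests on the identifiers given with the choice. The RefSeq gene table gives 2 transcripts for BBX24 and 1 for BBX25, and where the probes lie along them was not examined.

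B-box proteins carry zinc-binding B-box domains near their N-terminus through which they bind other proteins. BBX24 and BBX25 are close homologues that bind the bZIP factor HY5, a promoter of light development, and the ubiquitin ligase COP1, which marks light-signalling factors for destruction in darkness. In Arabidopsis seedlings both have been described as brakes on the switch from dark to light growth. Red light is sensed by phytochromes, which enter the nucleus in the light and change the transcription of early light-response genes. The SALT TOLERANCE name comes from a screen in yeast, in which the BBX24 cDNA raised tolerance to salt.

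The data were 6 single-colour Affymetrix arrays of RNA from 1 cm root tips of seedlings 7 days old, grown at 23 °C in darkness on medium with 1% sucrose. In the red light group, 3 samples had received 1 h of red light with a peak at 630 nm and 12 to 14 µmol per square metre and second. In the dark group, 3 samples had stayed in darkness for that hour. Every sample pooled tissue from several plates, so each array gives an average over many seedlings. The p-values for treatment below rest on the spread between 3 such pools per group. The labels name neither a genotype nor an accession, and they name a column kit for RNA extraction only for the dark samples. In whole root tips, more RNA per cell and more cells that hold the transcript cannot be told apart.

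The arrays also fell into classes that cross the treatment, which bears on every value below. The signal ratio of the 3' to the 5' control probe set of GAPDH was 20.9 in red light 1, 26.2 in dark 1 and 20.2 in dark 3 (the high class). It was 0.98 in red light 2, 1.27 in red light 3 and 1.45 in dark 2 (the low class). The actin ratio was 138.2 in red light 1, 71.7 in dark 1 and 90.7 in dark 3. In the low class it was still 13.8 in red light 2, 20.9 in red light 3 and 15.3 in dark 2. The ubiquitin ratio was 6.95 to 8.79 in the high class and 1.47 to 1.81 in the low class. With treatment in the fit, limma called 5020 of the 13647 tested probe sets different between the classes at an adjusted p of 0.05, or 36.8%. The p-values for array class set the high arrays against the low arrays, each class with arrays of both treatments. For BBX24 and BBX25, changes are therefore given from a fit with treatment alone, from a fit with array class added, and within each class.

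BBX24 was bright in darkness and brighter in red light on every array. Its MAS5 signal was 7022.5, 3600.9 and 3370.2 in red light 1, 2 and 3, against 760.5, 739 and 775.8 in dark 1, 2 and 3. The groups did not overlap, the 3 dark arrays lay close together, and red light 1 stood apart from the other red light arrays. The mean signal was 4665 ± 2045 in red light and 758.4 ± 18.5 in the dark (SD, n = 3 arrays each). On the log2 scale the change, red light minus dark, was 2.54 (SE 0.33), a 5.80-fold difference of the geometric means.

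**Figure D1:**
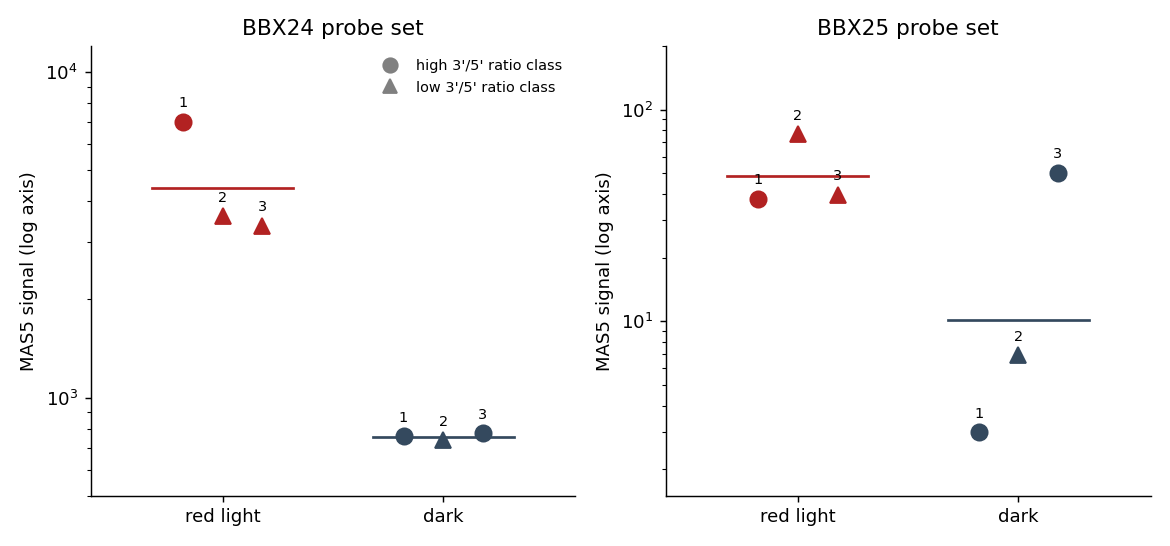
MAS5 signal (log axis) of the BBX24 probe set (left) and the BBX25 probe set (right) on each array, with red light left of dark. Numbers are replicate numbers, circles the high class and triangles the low class by the GAPDH 3'/5' ratio, and horizontal lines the geometric mean of 3 arrays. For BBX24 the red light arrays lie between 3370.2 and 7022.5 and all dark arrays between 739 and 775.8. For BBX25 dark 3, at 50.4, lies among the red light arrays.

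The place of BBX24 within each array, which does not depend on the scaling of the arrays, gave the same order. Its signal lay above 97.9%, 96.2% and 95.7% of the probe sets in red light 1, 2 and 3. In dark 1, 2 and 3 it lay above 81.7%, 78.9% and 82.4%. After quantile normalisation, which gives all arrays 1 common distribution, the signals were 6199, 3872 and 3446 in red light and 799.5, 673.5 and 834.3 in the dark. The probe set was thus already among the brighter ones in dark-grown root tips, and in red light it ranked 487th, 853rd and 972nd from the brightest.

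Any red light array exceeded any dark array for BBX24. The 9 ratios of 1 red light to 1 dark array ran from 4.34 (red light 3 over dark 3) to 9.50 (red light 1 over dark 2). The lower end of that range came from red light 2 and 3 and the upper end from red light 1 alone.

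The size of the BBX24 change differed between the array classes, while its direction did not. In the high class, 1 red light array against 2 dark arrays, the change was 3.19 on the log2 scale (9.14-fold). In the low class, 2 red light arrays against 1 dark array, it was 2.24 (4.71-fold). That difference of 0.96 was not tested. With array class in the fit, the change was 2.71 (SE 0.23, 6.56-fold).

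Array class itself was not used in choosing BBX24, so its class difference could be tested. Signal in the high class was above that in the low class by 0.53 on the log2 scale (SE 0.23), with a limma adjusted p of 0.0912 over 13647 probe sets, which missed the threshold. The dark arrays of both classes were alike, with 760.5 and 775.8 in the high class and 739 in the low class, and the class difference came from the red light arrays. Without red light 1 it was 0.056 (limma adjusted p = 0.908). Without dark 2 it was 1.01 and passed the threshold, with a limma adjusted p of 0.00741. Over all 11 alternatives the adjusted p ran from 0.00741 to 0.908.

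The spread of BBX24 was unequal between the groups. On the log2 scale the standard deviation over 3 arrays was 0.59 in red light and 0.035 in the dark. Of the tested probe sets, 63.2% had a smaller standard deviation than BBX24 among the red light arrays, and 0.667% among the dark arrays. The median standard deviation was 0.46 in red light and 0.40 in the dark. The fit takes 1 spread for both groups, and the residual standard deviation of 0.42 came almost wholly from the differences among the red light arrays.

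Set against the array as a whole, the BBX24 change lay near the upper end. Of the 13647 tested probe sets, 11 had a larger change by treatment alone and 6 had one with array class in the fit. A change of at least 2 on the log2 scale was reached by 35 probe sets, or 0.256%. Red light arrays all above dark arrays were found for 305 probe sets, or 2.23%, and red light arrays all below for 536, or 3.93%. Since BBX24 was chosen for this contrast, none of these places is evidence for it.

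**Figure D2:**
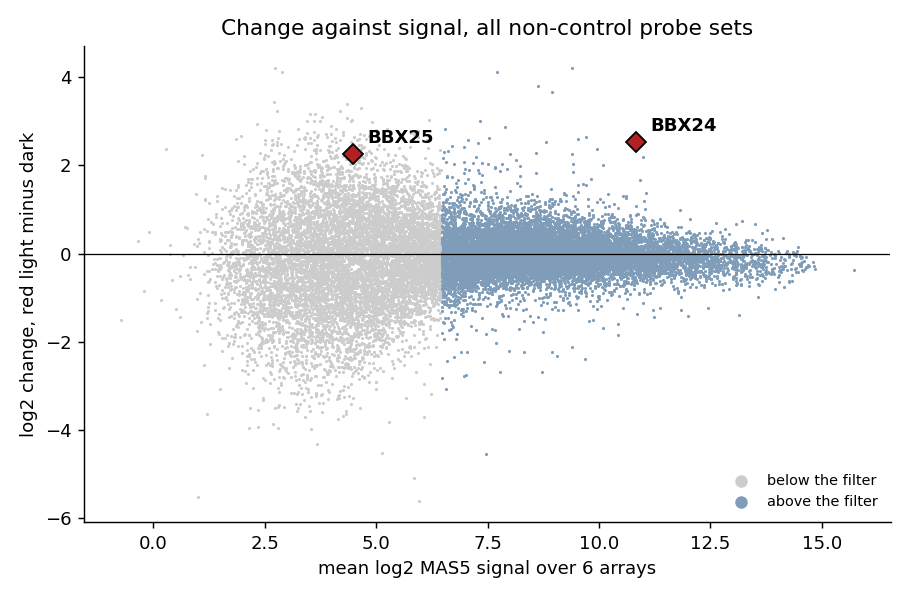
Log2 change, red light minus dark, against the mean log2 MAS5 signal over the 6 arrays, with 1 point per probe set that is not a control. Grey points lie below the filter on dim probe sets and blue points above it. BBX24 lies at a change of 2.54, with 11 tested probe sets above it, and BBX25 lies at 2.26 in the broad cloud of dim ones.

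BBX25 was dim on every array, and its response could not be measured with the same precision. Its MAS5 signal was 37.9, 76.5 and 39.6 in red light 1, 2 and 3, against 3, 6.9 and 50.4 in dark 1, 2 and 3. The groups overlapped, because dark 3 exceeded both red light 1 and red light 3. All 6 signals lay under 88.4, the geometric mean signal above which probe sets were tested, so BBX25 did not pass that filter and BBX24 was the only one of the pair that did. Detection calls were not used here, and whether these signals stand above background was not established.

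The mean BBX25 signal was 51.3 ± 21.8 in red light and 20.1 ± 26.3 in the dark (SD, n = 3 arrays each). The log2 change was 2.26, with a standard error of 1.17 from a fit without the filter. With array class in the fit it was 2.31 (SE 1.24). The 4.79-fold difference of geometric means rests on 2 dark signals of 3 and 6.9, near the floor of the arrays, where the lowest signals were 0.1 to 0.5. With 16 added to every signal before the logarithm the change was 1.09 (SE 0.60). Without dark 3 it was 3.42, and without dark 1 it was 1.38.

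The BBX25 groups overlapped on every scale used here, to an extent that depended on the scale. In 7 of the 9 pairs of a red light and a dark array the red light signal was higher, with ratios from 0.752 to 25.5. After quantile normalisation it was higher in 8 of 9, with signals of 34.5, 77.9 and 51.3 in red light and 2.79, 8.10 and 36.5 in the dark. By place within the array, BBX25 lay above 22.9%, 36.3% and 29.0% of probe sets in red light 1, 2 and 3, and above 2.99%, 10.8% and 23.7% in dark 1, 2 and 3. Only dark 3 and red light 1 were then out of order.

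Within the classes, the BBX25 change was 1.62 in the high class and 3.00 in the low class. That gap of -1.37, high minus low, was smaller than the residual standard deviation of 1.53, rests on single arrays with signals near the floor, and was not tested. The class difference of BBX25 was 0.15 (SE 1.24, limma adjusted p = 0.949 in the fit without the filter, 0.577 to 0.99 over its alternatives), and its sign turned to -0.28 with quantile normalisation.

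Changes of this size were more frequent among dim probe sets than among bright ones, a difference that was not tested. Of the 9099 below the filter, 198 had a change of at least 2 on the log2 scale (2.18%) and 472 a change of -2 or lower (5.19%), against 0.256% and 0.139% of those above it. The median residual standard deviation was 1.32 below the filter and 0.46 above it, and that of BBX25 was 1.53. There were 115 probe sets below the filter with a larger change than BBX25, or 1.26%. Among these dim probe sets, 234 (2.57%) had all red light arrays above all dark arrays, and BBX25 was not one of them.

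**Figure D3:**
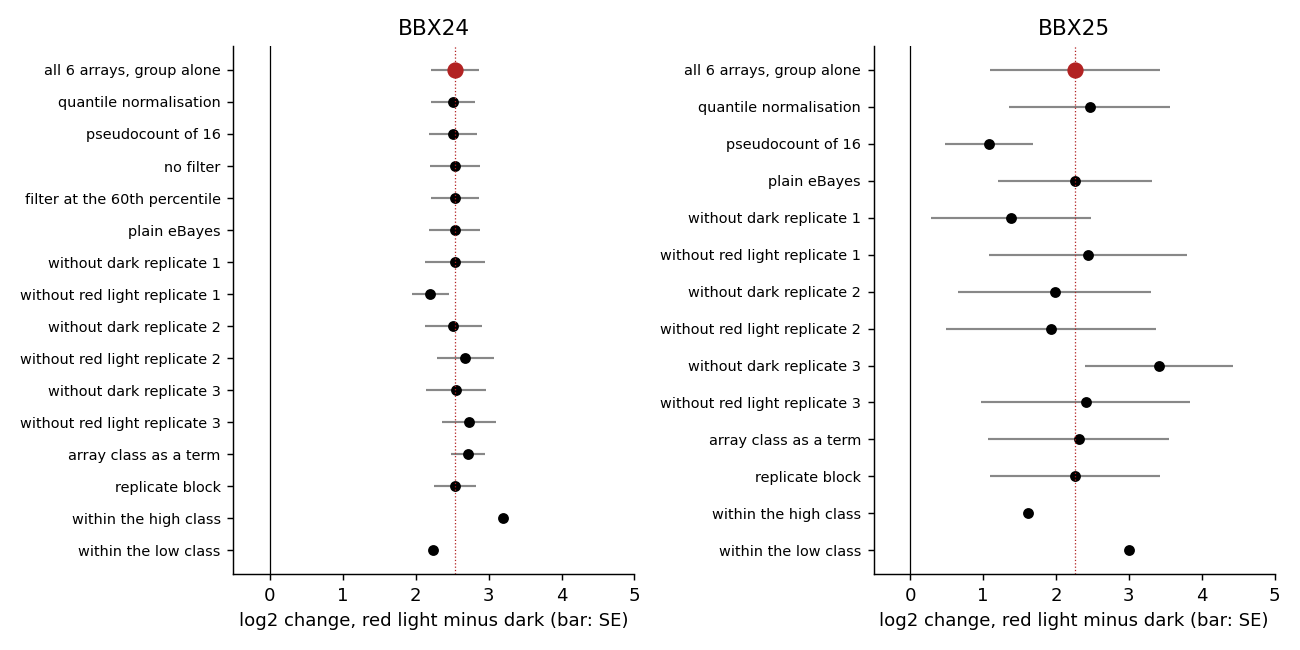
Log2 change, red light minus dark, of BBX24 (left) and BBX25 (right) with all 6 arrays by treatment alone (red point, dotted line) and under each alternative. Bars are standard errors of the fit, and the values within a class have none. BBX24 stays between 2.20 and 3.19, and BBX25 between 1.09 and 3.42 with wide bars.

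The rest of the light pathway could be seen only in small part. The lists held 83 further genes (30 B-box genes, 26 listed as partners, 9 phytochromes and their helpers, and 18 genes downstream). Whether each of the 26 binds BBX24 or BBX25 was not examined. Of the 83, 7 could be named on the array and 4 of these passed the filter. By treatment alone limma called 0 of the 4, as it did 0 of all 13647 tested probe sets (0%), and 258 of the 13647 (1.89%) had an unadjusted p under 0.05. With array class limma called 0 of the 4, beside 17 of 13647 (0.125%), and 939 of the 13647 (6.88%) had an unadjusted p under 0.05. In each fit 1 of the 4, UGT78D2, had an unadjusted p under 0.05. Their median change was -0.039 by treatment alone, against -0.015 for all tested probe sets, and 0.023 with array class, against -0.030. The other listed genes may lie among the 8730 probe sets that the annotation does not list.

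On the receptor side, FHL, which helps phytochrome A into the nucleus, was the single tested gene. Its signals were 259.1, 240 and 104.4 in red light and 237.2, 269.9 and 194.5 in the dark. The groups overlapped, and the change was -0.31 (SE 0.42, limma adjusted p = 0.999). It was -0.25 (SE 0.39) with array class, 0.27 within the high class and -0.77 within the low class.

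On the partner list, CUL4 is the cullin scaffold of the ubiquitin ligases that COP1 works with. The CUL4 signals were 2684.7, 1533.9 and 2082.8 in red light and 2717.3, 2234.3 and 2049.8 in the dark. Its change was -0.18 (SE 0.29, limma adjusted p = 0.999), and -0.068 (SE 0.22) with array class. HYH, the homologue of HY5, was below the filter and was not tested. It had signals of 126, 38.1 and 50.9 in red light against 64.5, 1.9 and 65.1 in the dark, and the groups overlapped. On the log2 scale the HYH change was 0.96 in the high class and 4.53 in the low class, where the lone dark signal was 1.9. Its change was 1.65 (SE 1.36) by treatment alone and 2.75 (SE 0.97) with array class.

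The only other B-box gene with a named probe set was BBX11. Its signals were 263.9, 176.8 and 140.7 in red light and 201.9, 237.7 and 111 in the dark, and the groups overlapped. The change was 0.10 (SE 0.42, limma adjusted p = 0.999) by treatment alone and 0.11 (SE 0.40) with array class, against 2.54 and 2.71 for BBX24. That difference between the B-box genes was not tested.

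Downstream, the flavonoid glucosyltransferase gene UGT78D2 had signals of 268.7, 261.8 and 250.2 in red light, all above the 115.9, 89.6 and 126.8 in the dark. Its change of 1.25 (SE 0.30, limma adjusted p = 0.999) did not pass the test, nor did it with array class (1.33, limma adjusted p = 0.215). DFR, which reduces dihydroflavonols towards anthocyanins, lay below the filter with overlapping signals of 42.9 to 108.9 in red light and 18.4 to 194.3 in the dark. UGT78D1, a flavonol rhamnosyltransferase gene also below the filter, had 6.2 to 94.5 in red light and 5.2 to 13.9 in the dark.

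Of the genes that flank BBX24 and BBX25 on their chromosomes, those that could be tested had small changes. The neighbours, 3 protein-coding genes on each side in the RefSeq table, were chosen after the members' values were known. Of the 12, 8 could be named on the array and 7 of these passed the filter. The named gene below the filter, AT1G06020, had a change of -0.38 (SE 1.20), with -1.14 in the high class and 1.08 in the low class. Among the 7, changes by treatment alone ran from -0.41 (AT1G06010) to 0.50 (AT1G06050). With array class they ran from -0.22 to 0.42 over the same 2 genes. limma called 0 of the 7 by treatment alone, beside 0% of all tested probe sets, and 0 with array class, beside 0.125%. An unadjusted p under 0.05 was reached by 0 of the 7 in either fit, beside 1.89% and 6.88% of all, so that counts of 0 are near the background.

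AT1G06050, the 2nd gene after BBX24 in RefSeq order, had signals of 286.7, 339.1 and 327.7 in red light and 259, 251.3 and 172.3 in the dark. These groups did not overlap, as for 2.23% of tested probe sets, but its change of 0.50 (SE 0.30, limma adjusted p = 0.999) did not pass. AT1G06045 overlaps the BBX24 locus in that table and had no named probe set. Whether the BBX24 probe set also reads AT1G06045 was not examined. On the other chromosome AT2G31390, whose locus overlaps that of BBX25, had signals of 7937.5, 5623.4 and 7563.6 in red light and 7480, 5588.7 and 8055.9 in the dark, a change of 0.001 (SE 0.29, limma adjusted p = 1.00). GLX2-5, a glyoxalase gene, had a change of -0.31 (SE 0.30).

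**Figure D4:**
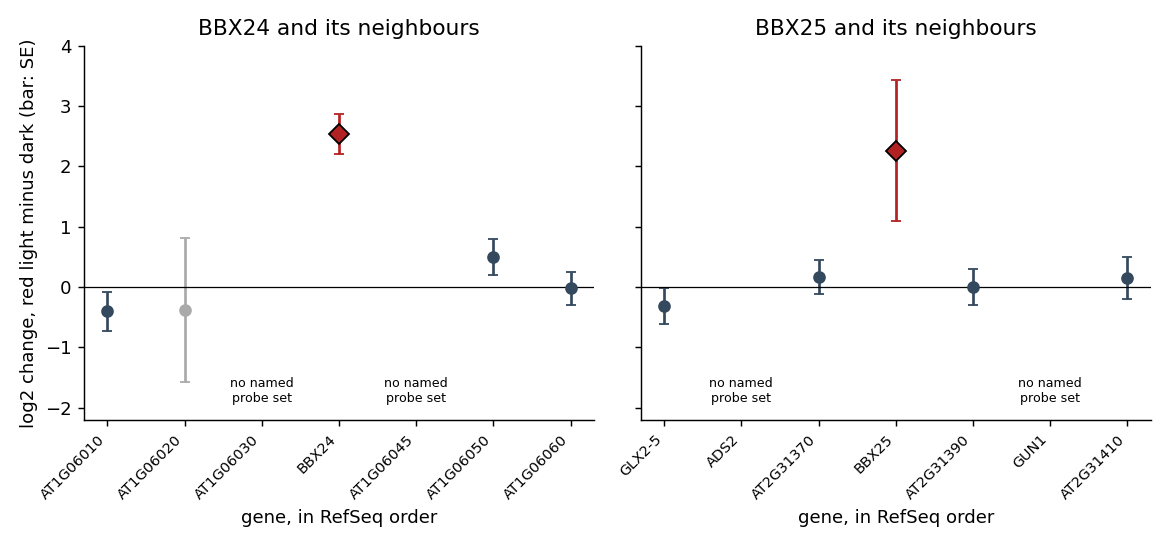
Log2 change, red light minus dark, of BBX24 (left) and BBX25 (right), as red diamonds, and of the 3 protein-coding genes on each side in RefSeq order. Bars are standard errors, and grey marks a neighbour below the filter. BBX25 also lies below the filter, and its value comes from the fit without it. The 7 tested neighbours lie between -0.41 and 0.50, against 2.54 for BBX24 and 2.26 for BBX25.

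The probe sets most like BBX24 across the 6 arrays were found by centring each log2 profile on its own mean and taking the root mean square difference from BBX24, over 7361 named and tested probe sets. The nearest were AT1G13670 (0.62), AT2G16365 (0.65), AT1G68500 (0.69), the chloroplast gene psaB (0.72) and UGT78D2 (0.73), against a median of 1.40 over all tested probe sets. Counting unnamed probe sets, these were the 6th, 8th, 11th, 12th and 14th nearest. This likeness is a description over 6 arrays that share the array classes.

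Picked for their likeness to BBX24, the 5 shared its direction as a result of that choice, and they differed from it in detail. AT1G68500 had signals of 513.3, 145.7 and 94.5 in red light and 73.2, 41.7 and 84.5 in the dark, and like BBX24 it was highest in red light 1. AT1G13670, with 281.7, 486 and 376.7 in red light and 65.5, 45 and 95.8 in the dark, was instead highest in red light 2. AT2G16365 was nearly level over the red light arrays, at 339.7 to 392, against 49.1 to 145.2 in the dark. For psaB, a photosystem I core protein, the signals were 446.3 to 968 in red light and 54.4 to 120.7 in the dark.

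**Figure D5:**
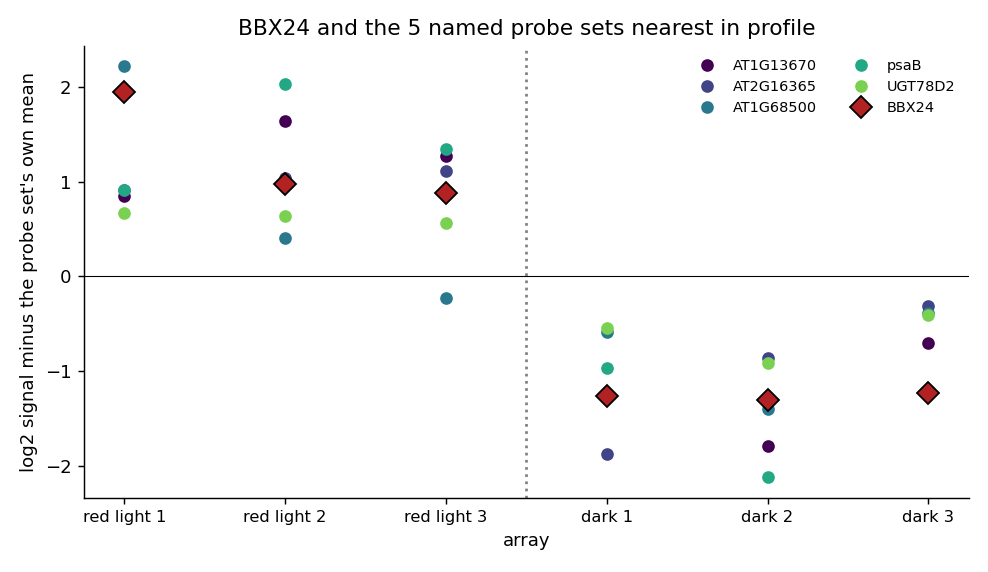
Log2 signal of BBX24 (red diamonds) and of the 5 named probe sets nearest to it in profile, each minus its own mean over the 6 arrays, with red light left of dark. BBX24 and AT1G68500 are highest in red light 1, and the 3 dark values of BBX24 are almost level.

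For BBX25 the nearest named profiles were AT2G16365 (0.87), the chloroplast genes rbcL (0.93), for the large subunit of Rubisco, and rpoC2 (0.94), for a subunit of the plastid RNA polymerase, AT4G08230 (0.95) and AT5G65560 (0.97), against a median of 1.75. In root mean square difference, none of these was as near to BBX25 as the 5 named above were to BBX24. By rank the order was the other way. Counting unnamed probe sets, these were the 2nd, 4th, 6th, 7th and 8th nearest to BBX25. AT5G65560 had signals of 133.3, 133.6 and 135.4 in red light and 24.8, 88.8 and 140.2 in the dark, with dark 3 the highest array.

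The summed signals of shoot and root hair markers overlapped between red light and dark, whereas single markers differed between the array classes. The summed signal of the 5 measured shoot markers (LHCB4.1, RCA, PSBW, PSAE1 and PSAN, of 8 listed) was 2462, 1305 and 807.1 in red light 1, 2 and 3 and 1330, 1251 and 2284 in dark 1, 2 and 3. The sum was highest in red light 1 and next highest in dark 3. PSBW and PSAN had that order, and the other markers did not. LHCB4.1 was highest in dark 2 (641.1), with 494.2 in red light 1. RCA had 259.5 in red light 1, 237.8 in dark 2 and 232.7 in dark 3. PSAE1 was highest in dark 3 (467.7), with 324.1 in red light 1. The 3 measured root markers, the root hair genes EXPA7, EXPA18 and XTH26 of 14 root genes listed, had summed signals of 474.3, 3172 and 2871 in red light and 1408, 3472 and 1377 in the dark, lowest in red light 1. Between the classes, high minus low, limma called 3 of the 3 root markers (EXPA7 at -3.61, EXPA18 at -2.47 and XTH26 at -1.14, adjusted p of 0.000805 to 0.00603) and 2 of the 5 shoot markers (PSBW at 2.24 and PSAN at 1.37, adjusted p of 0.00172 and 0.00265), beside 36.8% of all tested probe sets. The part of either marker list in the BBX24 values was not tested.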

How the data were processed

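Per the submitters' processing notes, the authors used MAS5, and the deposited values are intensity readings, linear and without a logarithm. The MAS5 version was not given in the sources used here. With 2% trimmed at either end, the array means came to 500.04 to 500.06, so each array had been scaled by a single factor. The label protocol started from 5 µg of total RNA.

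Of the 22810 rows, 64 controls were set aside. After log2 transformation, a probe set was tested when its mean over the arrays exceeded the 40th percentile, equal to 88.4 in signal, as 13647 did. These were fitted with limma 3.58.1 in R 4.3.3 (eBayes, trended and robust, using statmod 1.5.0), and Benjamini-Hochberg adjusted p-values were compared with 0.05. BBX25 lay below the filter, so its values come from the same fit without it, over all 22746. The arrays, 3 per group, limit the precision (median SE 0.38). A GAPDH 3'/5' ratio above 5 defined the high array class. The scripts were tested on simulated data. Alternatives covered scaling, a pseudocount of 16, the filter, the variance model and each array left out.

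The annotation gave 1 gene for 13513 probe sets and several for 503, and 13436 of those with 1 gene had a RefSeq locus (TAIR10.1, used for names and gene order). Both members, all B-box genes that could be named, up to 4 genes per other list, the markers and the 5 nearest profiles were named, while the neighbouring genes lie outside that rule. The members and lists were chosen with earlier results of these data known. No sequence was used here.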

Additional observations from a re-analysis of the deposited data

How the results depend on the processing

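The change of BBX24 stayed above 0 in all 15 alternatives (2.20 to 3.19) and that of BBX25 in all 13 (1.09 to 3.42). The values within each class were chosen after the data were seen. BBX24 moved by more than its residual standard deviation only within the high class, to 3.19. Leaving out 1 array gave 2.20 to 2.73 for BBX24 and 1.38 to 3.42 for BBX25. The class difference of BBX24 was 0.056 to 1.01 with 1 array left out, and each end sets a single array against 2 others of its treatment. That of BBX25 turned to -0.28 with quantile normalisation and ran from -0.82 to 0.92 with 1 array left out. It was -0.82 without dark 3 and -0.54 without dark 2, where red light 1 alone stood against red light 2 and 3. The cause was not tested. A filter at the 60th percentile gives no value for BBX25.

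By treatment alone no alternative gave a call except leaving out 1 array (0 to 10, with 10 without red light 1). With array class the 17 calls became 5 with plain eBayes and 8 to 272 with 1 array left out, with the lowest count, 8, when red light 2 was omitted, 9 when red light 3 was, 28 for dark 3, 71 for red light 1 and 272 for dark 2. Without dark 2 the low class held no dark array, so the treatment term set red light 1 alone against dark 1 and 3. Without red light 1 the high class held no red light array, and that term set red light 2 and 3 against dark 2 alone. The counts of 272 and 71 thus each rest on a single array on 1 side. The 5020 class calls became 2404 to 5305, lowest without red light 1, where dark 1 and 3 stood against dark 2 alone. The cause was not tested.

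Replicate numbers were not taken as pairs. Deviations from the group means correlated at 0.58, 0.64 and -0.32 for numbers 1, 2 and 3. Numbers 1 and 2 each join arrays of the same class, and number 3 joins a low with a high array. These correlations therefore cannot tell pairing from array class. With a replicate block the change was 2.54 for BBX24 (SE 0.28) and 2.26 for BBX25 (SE 1.17), with 0 calls.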
